A study of Sus scrofa with 6 samples.

Results

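The genes described are COL10A1, ALPL, PHOSPHO1, IBSP and MMP13, which encode matrix proteins and enzymes of hypertrophic, mineralising cartilage. They were taken as every probe set that the platform annotation gives one of these 5 symbols, which yielded 6 of 23999 probe sets, and 5 of the 6765 genes with a single symbol. MMP13 has 2 probe sets and the others have 1 each. The samples were porcine (Sus scrofa) and fall into 6 groups of 1 array each. Cultured chondrocytes from growth plate cartilage at day 10 and day 20 of differentiation, and native growth plate cartilage, stand against articular chondrocytes cultured for the same times and native articular cartilage. The cultured cells were freed with collagenase and kept without added factors in DMEM/Ham's F12 with FBS at 37 °C under 5% oxygen and 5% carbon dioxide. Age, breed, number of animals and any pooling are not given in the sources used here.

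In the growth plate, chondrocytes stop dividing, swell and change the matrix around them before it mineralises and is replaced by bone. Type X collagen marks these hypertrophic cells. Mineral starts in matrix vesicles, where PHOSPHO1 releases phosphate from membrane phospholipid products and ALPL, on the vesicle surface, removes the pyrophosphate that blocks crystal growth. Bone sialoprotein, encoded by IBSP, binds mineral and cells, and the collagenase MMP13 opens the calcified matrix. Healthy articular cartilage keeps its chondrocytes from this programme above its thin calcified layer.

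Values are linear signals of a probe set, which cannot be compared between probe sets. A floor of 36.1, the 40th percentile of all signals, stands in for detection calls, and a ratio with one array under it is a lower bound, written "at least". The median signal of an array was between 67.5 and 71.5 in growth plate samples and between 59.5 and 69.4 in articular samples. All arrays carried chondrocyte transcripts. ACAN, the cartilage proteoglycan, was between 6596 and 14874 in growth plate samples and between 10267 and 15883 in articular samples, and COL2A1, the main cartilage collagen, was between 1361 and 1615 and between 1164 and 2929. The other probe set of each was under the floor on all arrays. SOX9, another chondrocyte marker, gave 175, 125 and 118 in growth plate samples at native, day 10 and day 20. Articular samples gave 982, 81.0 and 76.8 for SOX9. In such bulk samples fewer cells of a type and less RNA per cell cannot be told apart.

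The first comparison asks how the 2 cartilages differ in these genes. All 5 genes were higher in growth plate than in articular samples at each of the 3 stages, and 4 of the 5, PHOSPHO1 being the exception, had every growth plate signal above every articular signal. Of the 5601 genes tested, 259 (4.62%) were separated in this direction. COL10A1 and ALPL were called higher by limma, and they were the only genes of all those tested that were (0.0357%). The 5 genes were picked with earlier results of these arrays known, so these counts describe them and are no independent evidence.

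**Figure D1:**
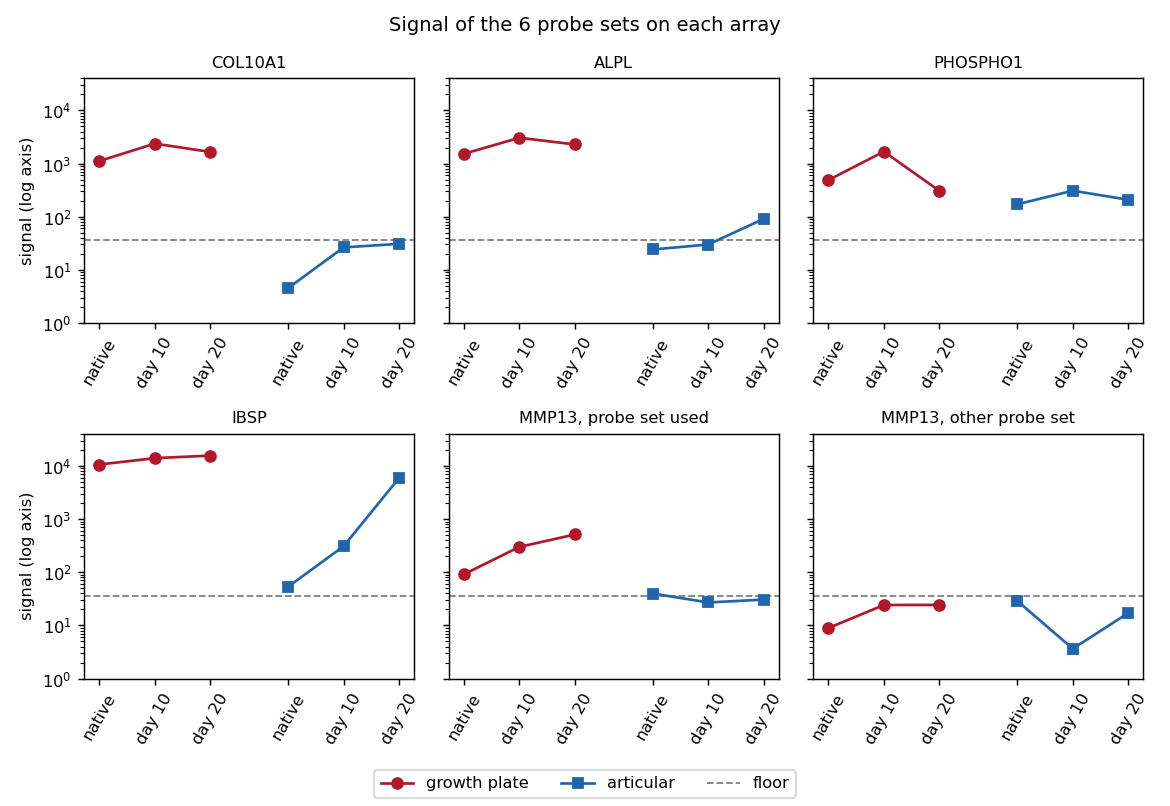
Signal of each of the 6 probe sets (log axis) on the 3 growth plate arrays (red circles) and the 3 articular arrays (blue squares), 1 array per point, with the floor of 36.1 dashed. COL10A1 and ALPL lie at 1114 or above on growth plate arrays and at or below 90.9 on articular ones, IBSP reaches 5958 on the articular day 20 array, and the other MMP13 probe set stays under the floor throughout.

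COL10A1, the short-chain collagen made by hypertrophic chondrocytes, gave 1114 in native growth plate cartilage, 2375 at day 10 and 1655 at day 20. The articular series gave 4.51, 26.4 and 30.8 at the same stages. All articular signals therefore lay under the floor, and their order has no meaning. The ratio of growth plate to articular signal was at least 30.8 for the native pair, at least 65.7 for the day 10 pair and at least 45.8 for the day 20 pair. The fitted log2 difference was 5.50 ± 0.32 (SE, 6 arrays), with a limma adjusted p of 0.0206. Every articular value entered this fit as the floor, so the SE and p hold no spread among articular arrays. This fitted size depends on the floor and is no bound, being 3.59 with the floor at the 60th percentile of all signals and 6.14 with it at the 25th, and called in both. The gene passed the filter on low signals only through its growth plate arrays, which fixed the direction.

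ALPL, the tissue-nonspecific alkaline phosphatase, gave 1522 in native growth plate cartilage, 3057 at day 10 and 2287 at day 20. Articular samples gave 24.2, 29.9 and 90.9, so that only the day 20 culture lay over the floor. For ALPL this ratio was at least 42.1 in the native pair, at least 84.6 in the day 10 pair and 25.1 in the day 20 pair. The fitted log2 difference was 5.48 ± 0.39 (SE, 6 arrays) with a limma adjusted p of 0.0318. It too moved with the floor, to 4.02 at the 60th percentile and 5.77 at the 25th, and was called in both. The native and day 10 articular values entered the fit as the floor, so the SE and p hold no spread between them. The filter asks for 2 arrays over the floor, so ALPL, with 1 articular array over it, also passed only through growth plate arrays. Both calls were lost with no filter on low signals, where the limma adjusted p was 0.548 for COL10A1 and 0.587 for ALPL. ALPL alone was also lost when probe sets of one gene were averaged and without the intensity trend, at limma adjusted p of 0.0567 and 0.0528.

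PHOSPHO1, the phosphatase inside matrix vesicles, was the one gene of the 5 whose tissues overlapped. It gave 487 in native growth plate cartilage, 1684 at day 10 and 306 at day 20. The articular signals were 171, 309 and 208, all of them over the floor. The day 20 growth plate culture was thus just under the day 10 articular culture. Growth plate was 2.85-fold higher in native tissue, 5.46-fold at day 10 and 1.47-fold at day 20. The log2 difference of 1.50 ± 0.40 (SE, 6 arrays) was not called, with a limma adjusted p of 0.409.

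IBSP, bone sialoprotein, gave 10642 in native growth plate cartilage, 14034 at day 10 and 15675 at day 20. Native articular cartilage gave 53.2, the articular culture 309 at day 10 and 5958 at day 20. Growth plate was 200.1-fold higher in native tissue, 45.5-fold at day 10 and 2.63-fold at day 20. Despite a mean log2 difference of 4.85 ± 1.09 (SE, 6 arrays), IBSP was not called, with a limma adjusted p of 0.377. The size of the tissue difference varied with stage more than for most genes, with a residual SD of 2.25 log2 units where the median over all genes was 0.28. That residual exceeded or equalled those of 99.9% of genes tested. In a fit without 1 array of a stage, the tissue difference comes from the other stages alone. Leaving out either array of a stage therefore gives the same size. For IBSP this size was 6.58 log2 units without either day 20 array and 3.45 without either native array. Such fits rest on 1 residual degree of freedom and are not separate support.

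MMP13, a collagenase that cleaves type II collagen, gave 91.2 in native growth plate cartilage, 299.7 at day 10 and 513 at day 20. Native articular cartilage gave 39.8, just over the floor, and the articular cultures gave 27.0 and 30.5, both under it. Growth plate was 2.29-fold higher in the native pair, by at least 8.29-fold in the day 10 pair and by at least 14.2-fold in the day 20 pair. The fitted log2 difference of 2.69 ± 0.52 (SE, 6 arrays) was not called, with a limma adjusted p of 0.317, and was 1.02 with the floor at the 60th percentile. MMP13 likewise had 1 articular array over the floor, so its growth plate signals were what let it into the test. Both articular cultures entered the fit as the floor, so the SE and p hold no spread between them. Without the native array of either cartilage the difference was 3.44, since such fits take it from the cultures alone. The second MMP13 probe set gave 8.9, 24.2 and 24.3 in growth plate samples and 29.1, 3.64 and 17.1 in articular samples. It was under the floor on every array, so the pattern of MMP13 rests on 1 of its 2 probe sets.

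By stage, 3 of the 5 genes were 4-fold or more higher in growth plate for the native pair, where 193 genes (3.45%) were. At day 10 all 5 were, against 35 of all genes tested (0.625%). At day 20 COL10A1, ALPL and MMP13 were, against 22 (0.393%). These are ratios of single arrays without a test. Limma's unadjusted p was under 0.05 for all 5, as it was for 279 genes (4.98%) higher in growth plate. A fit to the 4 cultured arrays alone, with 1 residual degree of freedom, called all 5 genes, PHOSPHO1 with the largest limma adjusted p, 0.0434. Of the 5, only IBSP and PHOSPHO1 were over the floor on all 6 arrays. COL10A1 and MMP13 were under it in both articular cultures, so the direction of their calls was fixed by the filter. Their articular values in that fit were the floor itself. ALPL had 1 articular culture over the floor and needed a growth plate array to pass. That fit called 66 genes higher in growth plate (1.21%).

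**Figure D2:**
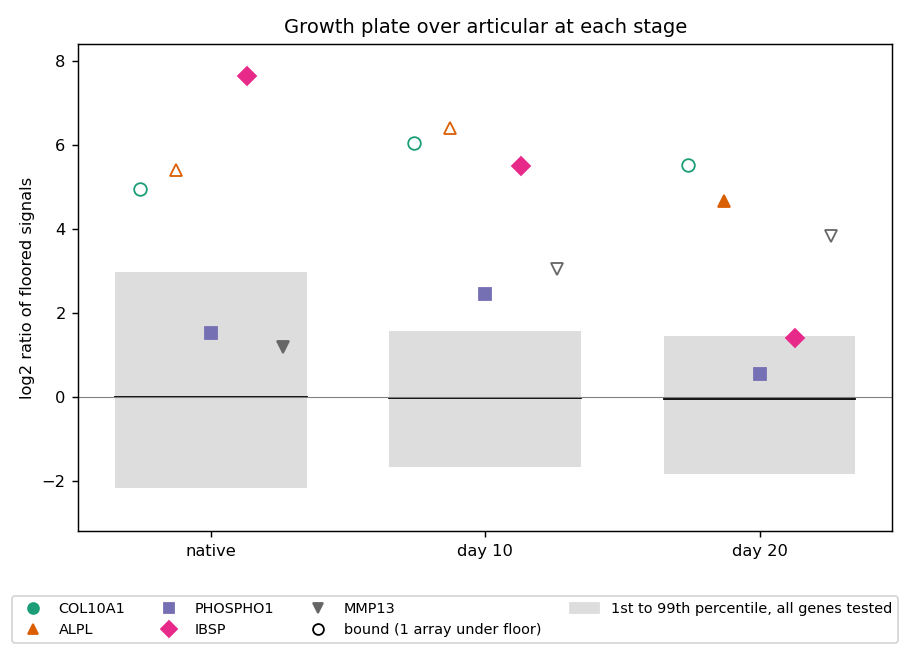
Log2 ratio of growth plate over articular signal at native, day 10 and day 20, 1 array against 1 array, for the 5 genes, where open symbols are lower bounds. Grey bars span the 1st to the 99th percentile of the genes tested and black lines their median; all 5 genes lie above the bar at day 10, while IBSP and PHOSPHO1 lie within it at day 20.

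The second comparison asks how each gene differed between cultured chondrocytes and the native cartilage they came from. In growth plate cells all 5 genes were higher at day 10 than in native tissue, by 1.32-fold (IBSP) to 3.45-fold (PHOSPHO1), and none by 4-fold (0.428% of genes tested were). All 5 ratios share the same pair of arrays, on which the median log2 ratio of all genes tested was 0.03. COL10A1 and ALPL were 2.13-fold and 2.01-fold higher at day 10. At day 20 they were 1.48-fold and 1.50-fold above native tissue. MMP13 was 3.29-fold higher at day 10 and 5.63-fold at day 20, the one gene of the 5 that passed 4-fold there (0.964% of genes tested). PHOSPHO1 at day 20 was 1.59-fold lower than in native tissue.

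In articular cells IBSP had the largest ratios of the 5. It was 5.80-fold higher at day 10 than in native articular cartilage and 112-fold higher at day 20. It was the only one of the 5 at least 4-fold higher, at day 10 (4.46% of genes tested) and at day 20 (4.37%). ALPL was at least 2.52-fold higher at day 20, and at day 10 it was under the floor as in native tissue. PHOSPHO1 was 1.81-fold higher at day 10 and 1.22-fold at day 20. COL10A1 was under the floor at all 3 stages, and MMP13 was under it in both cultures, at least 1.10-fold lower than in native tissue.

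Both day ratios of a cartilage share its native array. Limma called none of the 5 for the mean of both days minus native, and 0 of all genes (0%) in either direction. Limma's unadjusted p was under 0.05 for none of the 5, though for 596 genes higher in culture (10.6%) and 493 lower (8.8%). The largest change was that of IBSP, 2.58 ± 1.16 log2 units (SE, 6 arrays), with a limma adjusted p of 0.288. Without the native growth plate array the fitted change is that of articular cells alone, and for IBSP it was 4.67 log2 units. Without the native articular array the change is that of growth plate cells alone. It was then 0.48 for IBSP and 2.10 for MMP13. Leaving out the growth plate day 20 array gave 3.87 for IBSP, and leaving out the articular day 20 array gave 1.28.

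**Figure D3:**
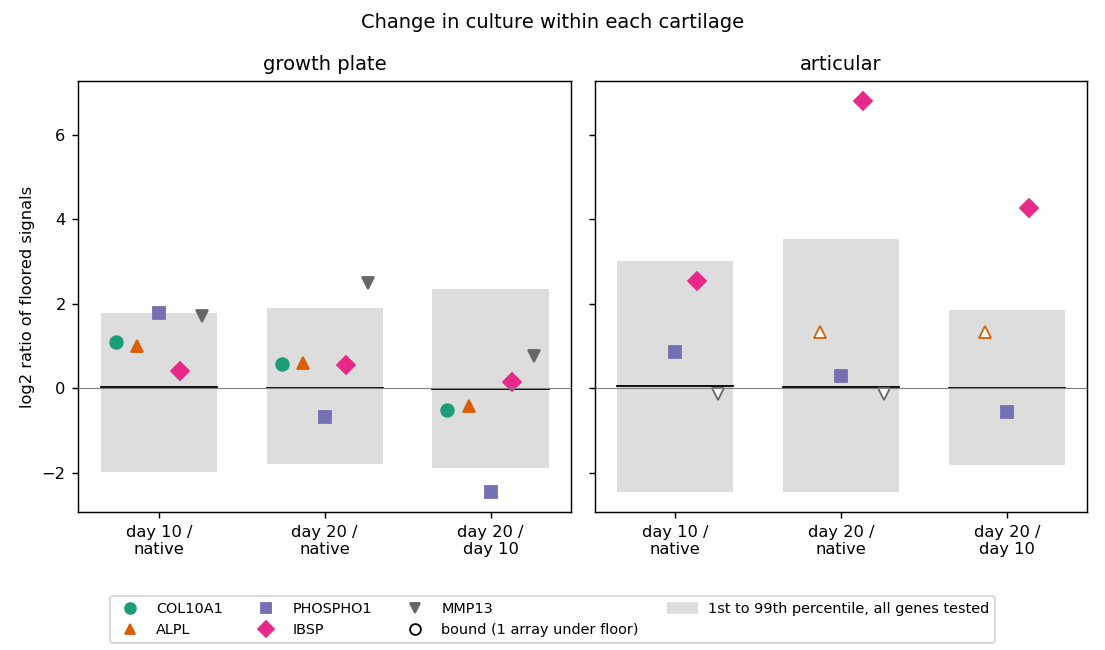
Log2 ratios within growth plate (left) and articular (right) samples, 1 array against 1 array, with open symbols for bounds and grey bars for the 1st to the 99th percentile of the genes tested. IBSP lies above the bar at day 20 in articular cells only, MMP13 above it at day 20 over native in growth plate cells, and PHOSPHO1 below it from day 10 to day 20 in growth plate cells; pairs with both arrays under the floor are left out.

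The third comparison sets day 20 against day 10. In growth plate cultures PHOSPHO1 was 5.51-fold lower at day 20, with COL10A1 1.44-fold and ALPL 1.34-fold lower, while IBSP was 1.12-fold and MMP13 1.71-fold higher. PHOSPHO1 was the only one of the 5 at least 4-fold lower (0.839% of genes tested). In articular cultures IBSP was 19.3-fold higher at day 20, where 0.875% of genes were at least 4-fold higher. ALPL was at least 2.52-fold higher there and PHOSPHO1 1.48-fold lower. The fitted day difference of PHOSPHO1 was -1.51 ± 0.49 and that of IBSP 2.22 ± 1.34 log2 units (SE, 6 arrays), with limma adjusted p of 0.288 and 0.498. Limma called 0 genes of all those tested, 398 being higher and 422 lower (7.11% and 7.53%) at an unadjusted p under 0.05, PHOSPHO1 the only one of the 5. Fitted without a native array, PHOSPHO1 and IBSP kept their fitted size, since the day difference rests on the cultures alone, and both were called. For PHOSPHO1 the limma adjusted p was 0.0223 without the growth plate array and 0.0164 without the articular one, and for IBSP 0.0354 and 0.0267, in fits that called 497 and 506 genes in all (8.94% and 9.14%). IBSP was also called without the growth plate day 20 array, with a fitted difference of 4.81 log2 units (limma adjusted p of 0.0325). Without the articular day 20 array its sign turned, to -0.37 log2 units (limma adjusted p of 0.95).

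The 5 genes differed in how far they ran together over the 6 arrays. Pearson's r of floored log2 signal was 0.987 between COL10A1 and ALPL and 0.909 between COL10A1 and MMP13. It was 0.856 between ALPL and IBSP, and lowest between PHOSPHO1 and IBSP, at 0.564. COL10A1 was at the floor on every articular array, and ALPL and MMP13 on most, so their r values rest on floored values there. With 6 arrays that share a tissue split all these r values are a description, and r takes no account of the size of a difference. The gene most like both COL10A1 and ALPL was C12H17orf75 (r of 0.997 and 0.996), at 331 to 370 in growth plate samples against 185 to 198 in articular samples. A2M, an inhibitor of proteases, was among the 5 most like each of them, with r of 0.969 and 0.980. FGD4, an activator of the GTPase CDC42, was too, with r of 0.990 and 0.978. Its growth plate signals were 66.0 to 68.1 and its articular signals all lay under the floor, so that r rests on floored values there.

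For IBSP the most similar pattern was that of EFHD1, a calcium-binding protein of mitochondria, with r of 0.988. EFHD1 gave 1523, 2851 and 1657 in growth plate samples at native, day 10 and day 20, and 34.4, 182 and 927 in articular samples. GIT1, an adaptor of ARF GTPase control, followed with r of 0.988, then SLC38A1, a glutamine transporter, with 0.983. LOC100517973 had 0.978 and MITF, a transcription factor of pigment cells and osteoclasts, 0.976. Each of these 5 genes had its articular signals in the order native, day 10, day 20 from low to high, as IBSP had. They were picked by their likeness to IBSP on these same arrays, so the shared order comes with that choice.

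For PHOSPHO1 the closest genes were EXOC2, a subunit of the exocyst, with r of 0.987, and PKDCC, a secreted kinase needed for limb growth in mice, with 0.985. PKDCC gave 790.5, 1291 and 536 in growth plate samples and 416, 636 and 499 in articular samples. VPS37B, S100G and TMEM263 had r of 0.983, 0.983 and 0.980. For MMP13 they were GMPR (0.999), CCDC6 (0.994), SNTB1 (0.978), SKAP2 (0.951) and MGLL (0.950). GMPR gave only 42.2, 49.6 and 54.1 in growth plate samples and was under the floor on all articular arrays. Its r thus rests on floored values there. SKAP2, an adaptor of SRC kinase signalling, gave 487, 688 and 800 in growth plate samples against 198, 288 and 221 in articular samples, whereas CCDC6 stayed between 918 and 1321 on all 6 arrays.

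The genes around these 5 in the pathway were taken from lists written from general knowledge. Of 13 regulators of hypertrophy, 8 were tested and none was called. In growth plate 3 of the 8 were higher by 4-fold or more for the native pair (3.45% of genes tested), 3 at day 10 (0.625%) and none at day 20 (0.393%), and 1 was lower by as much for the native pair (1.21% of genes tested). The median of their log2 differences, each averaged over the stages, was 0.76, where that of all genes was -0.04, with 4 positive and 4 negative. DLX5, a homeobox factor that drives maturation, was 7.39-fold higher in native growth plate, 2.63-fold at day 10 and 1.60-fold at day 20. FOXA2, a factor that activates hypertrophic genes in mice, was at least 34.4-fold, 5.21-fold and 1.73-fold higher. PTH1R, the receptor through which PTHLH delays hypertrophy, was 25.3-fold, 9.67-fold and 2.998-fold higher. IHH, the hedgehog signal of prehypertrophic cells, was 1.70-fold, 8.98-fold and 1.71-fold higher. The other probe set of FOXA2 was under the floor on all 6 arrays, and that of IHH on all but the growth plate day 10 array. The gene lower in native growth plate was SOX9, the master regulator of cartilage, at 175 in growth plate and 982 in articular cartilage. In the cultures SOX9 was 1.54-fold higher in growth plate at day 10 (125 against 81.0). At day 20 it was 1.53-fold higher (118 against 76.8).

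The other genes of mineral-binding proteins were less far apart than IBSP in native tissue and at day 10. Of 8 listed, 6 were tested, none was called, and none was 4-fold apart at any stage. Their median log2 difference was -0.12, with 2 positive and 4 negative. MGP, an inhibitor of calcification, was 3.65-fold higher in native growth plate and 1.08-fold higher at day 10, and 1.15-fold lower at day 20. SPARC, a collagen-binding glycoprotein, was between 13645 and 17700 in growth plate samples and between 16102 and 18162 in articular samples. BGLAP, osteocalcin, was near or under the floor, at 60.3, 27.1 and 23.2 against 50.3, 64.6 and 15.2.

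Of 8 genes of phosphate and pyrophosphate handling only ENPP1 and PPA1 were tested, and neither was called or 4-fold apart. ENPP1, which makes the pyrophosphate that ALPL removes, was 3.48-fold higher in native growth plate, 1.67-fold higher at day 10 and 1.26-fold lower at day 20. PPA1, a cytosolic pyrophosphatase, was 1.42-fold and 1.30-fold lower, then 1.31-fold higher. ANXA2 and ANXA5, calcium-binding proteins abundant in matrix vesicles, were 2 of 3 listed annexins. They were within 1.49-fold and 1.47-fold of the articular signal at every stage.

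Among 12 listed proteases, inhibitors and VEGFA, 8 were tested, none was called, and the median log2 difference was 0.02 (4 positive, 4 negative). MMP1, the interstitial collagenase, was lower in growth plate by 5.02-fold in native tissue and by at least 4.12-fold at day 10, and 1.55-fold higher at day 20. MMP3, stromelysin, was 89.4-fold lower in native growth plate and under the floor in all 4 cultures. Of all genes tested 1.21% were at least 4-fold lower in the native pair, and 28 genes were at day 10. The only one of the 8 at least 4-fold higher was TIMP3, a metalloprotease inhibitor, at day 10 (4.20-fold, against 0.625% of genes tested). TIMP3 was 3.65-fold lower in native growth plate and 2.33-fold higher at day 20. Another TIMP3 probe set gave 379 against 129 at day 10, and the last was under the floor throughout. MMP14, a membrane collagenase, was 1.38-fold, 1.53-fold and 2.40-fold higher, and TIMP2, its partner in activating MMP2, was 1.36-fold, 1.94-fold and 1.20-fold lower.

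**Figure D4:**
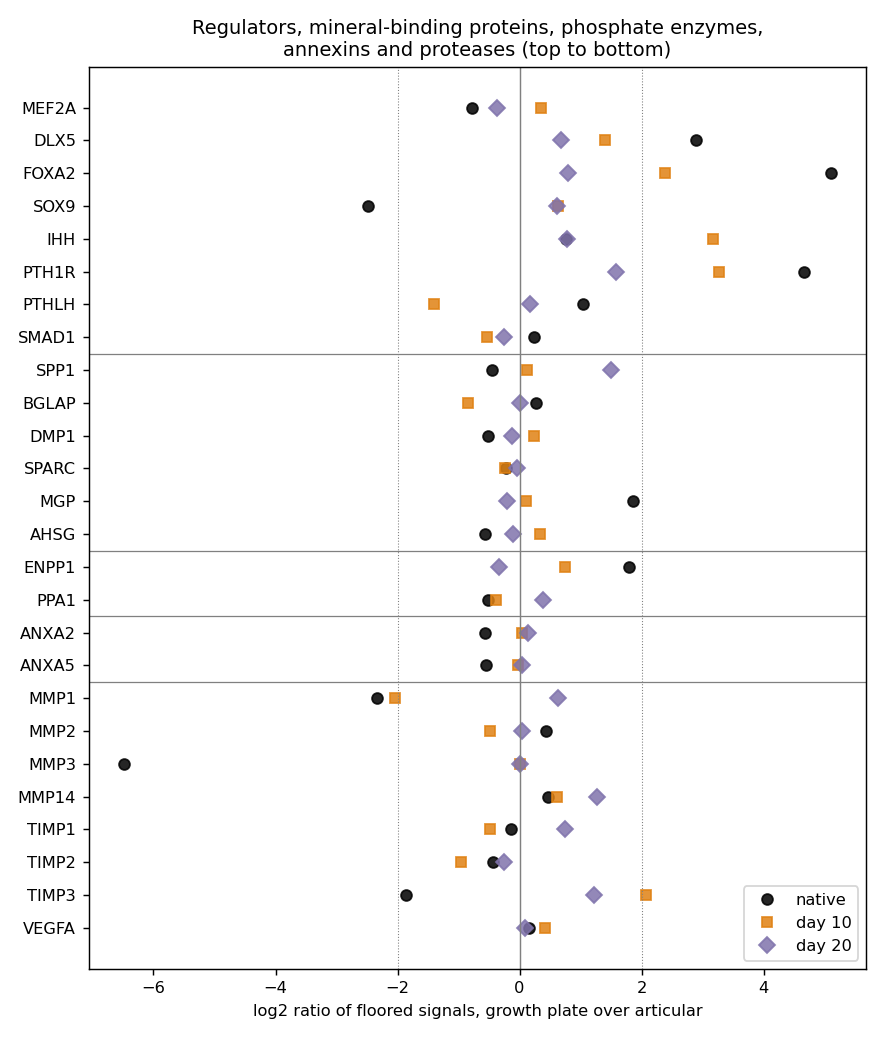
Log2 ratio of growth plate over articular signal at each stage for the tested genes of the 5 pathway lists, 1 array against 1 array, with dotted lines at 4-fold. FOXA2 and PTH1R lie farthest right, MMP3 in native tissue farthest left, and the mineral-binding proteins, phosphate enzymes and annexins stay within the dotted lines.

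IBSP and MMP13 lie in clusters of related genes, and their neighbours were looked at after their values were seen. By the gene order of the Sscrofa11.1 RefSeq annotation, IBSP lies among SPP1, MEPE, DMP1, DSPP and SPARCL1. SPP1, osteopontin, another acidic mineral-binding protein, gave 14127, 11654 and 13958 in growth plate samples and 19241, 10658 and 4955 in articular samples. SPP1 and IBSP thus ran in opposite order in articular samples, SPP1 being lowest and IBSP highest at day 20. DMP1, a matrix protein of osteocytes, was at most 42.8 in growth plate and 51.4 in articular samples. SPARCL1, a secreted relative of SPARC, gave 697, 2978 and 4635 in growth plate samples and 64.7, 409.8 and 3976 in articular samples. Like IBSP it was lowest in native articular cartilage and high at day 20 in both cultures. MMP13 lies beside the genes MMP12, MMP3, MMP1 and MMP8. MMP1 and MMP3 had their highest signals in native articular cartilage, at 807 and 4319, where MMP13 gave 39.8.

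**Figure D5:**
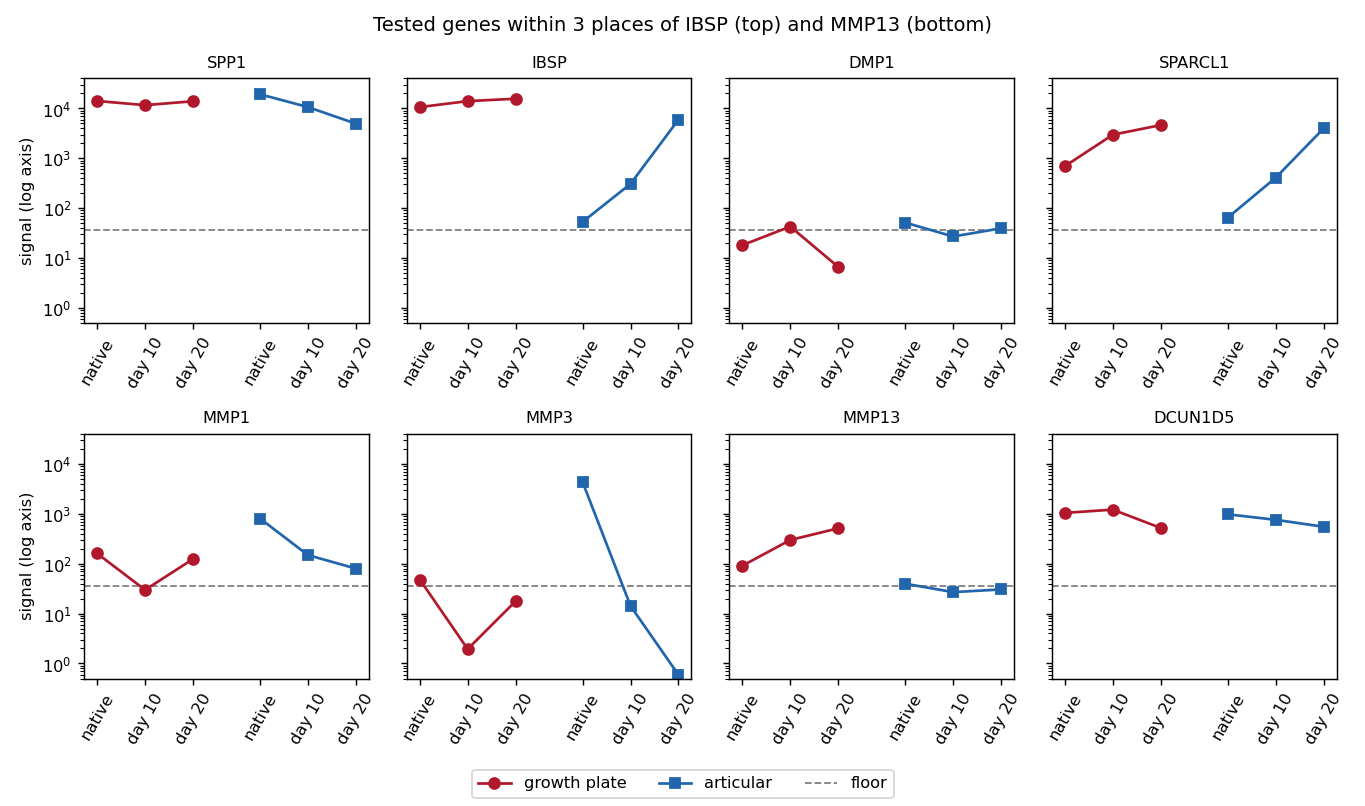
Signals (log axis) of the tested genes within 3 places of IBSP (top row) and MMP13 (bottom row) on the 3 growth plate arrays (red circles) and 3 articular arrays (blue squares), with the floor dashed. SPARCL1 follows the order of IBSP on the articular arrays and SPP1 the reverse, and MMP1 and MMP3 are highest in native articular cartilage.

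Markers of bone, vessel and blood cells were read on the same arrays. Of 7 osteoblast and osteocyte markers 3 were tested, with a summed signal of 451 to 2373 in growth plate samples and 248 to 892 in articular samples, the highest at day 20 in each. Most of it on each array was COL1A2, which gave 432, 381 and 2343 against 146, 585 and 838. SP7, the osteoblast transcription factor, was under the floor on every array except articular day 20, where 1 of its 2 probe sets gave 57.3. PHEX was under the floor on all arrays. The tested probe set of COL1A2 and 1 probe set of SP7 were thus highest at day 20 in articular samples, as IBSP was. The other COL1A2 probe set gave 19.6, 70.0 and 64.3 in articular samples, highest at day 10. The other SP7 probe set was under the floor on all arrays. BGLAP gave 50.3, 64.6 and 15.2 in articular samples at native, day 10 and day 20, and DMP1 51.4, 27.1 and 39.5, so neither was highest at day 20. The part of these cells in the IBSP signal was not tested.

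Of 8 osteoclast markers 2 were tested, with sums of 6574 to 14831 in growth plate and 5805 to 17849 in articular samples. These sums were almost wholly CTSK, which chondrocytes also express. CALCR was under the floor throughout, ACP5 gave at most 63.5 and 46.6, and MMP9 gave 47.0 in native growth plate cartilage and was under the floor elsewhere. Of 5 endothelial markers only PECAM1 was tested, at 52.6 to 67.2 in growth plate and 65.6 to 277 in articular samples. Its probe sets disagreed in the cultures: the one tested was lower in growth plate at each stage, whereas the other gave 39.9 and 45.2 in growth plate cultures and was under the floor in articular cultures. Of 7 blood and macrophage markers only HBB was, at 234 to 426 and 342 to 610. The 6 tested of 10 chondrocyte markers summed to between 29763 and 37025 in growth plate samples and between 31515 and 39900.3 in articular samples.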

How the data were processed

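Total RNA of 6 samples, 100 ng each, was measured on Affymetrix arrays, 1 per group. The deposited values are linear intensities, 1 for each probe set; the submitters' processing notes name GCOS 1.4. Scaling target and algorithm settings are not given in the sources used here. Trimmed means (2% off each end) of the arrays agreed to within a factor of 1.00005, and no further scaling was applied. Of 24123 probe sets, 124 controls were left out; 10069 had 1 gene symbol, 198 several and 13732 none, and 9961 had a current RefSeq gene ID, used for names. Signals were raised to a floor (40th percentile, 36.1) and log2 taken. A gene was read from its probe set of highest mean, and 5601 genes above the floor on at least 2 arrays were tested.

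limma 3.58.1 (R 4.3.3) fitted tissue plus stage with an intensity trend. No group was replicated, so p-values set a difference against the tissue-by-stage interaction (2 residual degrees of freedom, prior 3.74). Calls needed a Benjamini-Hochberg adjusted p under 0.05 over all genes and 2-fold. The fit was tested on simulated data with equal noise for all genes and no floor. That test does not bear on the calls of the 5 genes. Pairs of arrays were compared by a 4-fold rule without a test. The genes and lists were chosen with earlier results of these data known. Named were the 5 genes, up to 4 of each list with the largest tissue difference, and the 5 genes most like each by Pearson's r; others were chosen after their values were seen. Alternatives were other scalings, floors, filters, probe set summaries, size rules and subsets of arrays. The number of arrays limits the precision.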

Additional observations from a re-analysis of the deposited data

Results flagged for a closer look

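In 4 cases a gene went one way in growth plate cells and the other way in articular cells under the same contrast, with 1 array on each side. The difference between the tissues was not tested in any of them. At day 10 over native tissue, MMP13 had a log2 ratio of 1.72 in growth plate and -0.14 in articular cells. At day 20 over native tissue it had 2.49 in growth plate and -0.14 in articular cells. The articular values of MMP13 are set by the floor, since its native signal was just over the floor and its culture signals under it. From day 10 to day 20, ALPL had a log2 ratio of -0.42 in growth plate and at least 1.33 in articular cells. PHOSPHO1 at day 20 over native tissue had -0.67 in growth plate and 0.29 in articular cells. Groups of 1 array allowed no search for samples that stand apart within a group.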

How the results depend on the processing

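Of the 5 genes, the number called higher in growth plate was 2. It was 0 with no filter, and 0 when all 6 arrays had to exceed the floor, a rule that drops COL10A1, ALPL and MMP13. It was 1 (COL10A1) when probe sets of one gene were averaged and without the intensity trend, and 5 in a fit to the 4 cultured arrays. It stayed 2 under quantile normalization, median centring, floors at the 25th and 60th percentile, a pseudocount of 32 and with every probe set as a feature. With 1 array left out the fitted difference ranged from 5.23 to 5.78 log2 units for COL10A1 and from 5.02 to 5.90 for ALPL. The range was 3.45 to 6.58 for IBSP, 2.13 to 3.44 for MMP13 and 1.03 to 1.98 for PHOSPHO1. Over all genes tested, 3 were called for this comparison and 0 to 8 under the settings that keep 6 arrays. For culture minus native the count among the 5 was 0 (over all genes 0, and 0 to 9 under those settings). For day 20 minus day 10 it was 0, and 2 in the fit to the cultured arrays, which called 509 genes in all (9.3%). Fits without an array, or on cultured arrays only, rest on fewer samples and 1 residual degree of freedom. Single ratios of culture over native that were at least 4-fold higher numbered 3 of 20. They numbered 1 with the floor at the 60th percentile or a rule of 8-fold, and 8 with a rule of 2-fold. From day 10 to day 20, 1 of 10 was higher and 1 lower by 4-fold; 2 were higher by 2-fold, and 0 lower by 8-fold. The 11 of 15 tissue ratios at least 4-fold higher stayed within 1.5 times of that number under every scaling, floor, summary and size rule run. The differences of the 5 genes under these alternatives numbered 241, of which 4 lost a call, 19 gained one and 7 turned sign, none of these called on either side. With the floor at the 60th percentile the day 20 minus day 10 difference of ALPL was -0.21. With 1 array left out this difference ranged from -0.23 (without articular day 10; -0.17 without articular day 20) to 1.15 for ALPL, from -0.66 to 0.14 (without growth plate day 10) for COL10A1, from -0.46 (without growth plate day 20) to 1.24 for MMP13, and from -0.37 (without articular day 20) to 4.81 for IBSP. Culture minus native ranged from -0.14 (without native growth plate) to 2.10 for MMP13. The fit on tissue and stage already sets the cartilages side by side within each stage, and no further block on replicate numbers could be fitted, since each group has 1 array and the labels give no such numbers. Depth in the sense of signal over background limits COL10A1, ALPL and MMP13 in articular samples, where folds with an array under the floor are bounds.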
